A study of Mus musculus with 2 samples.

Results

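The genes described here are 10 genes of glycolysis and lactate metabolism, chosen by symbol as 6 isoforms used in somatic cells (Pgk1, Ldha, Ldhb, Gapdh, Hk1 and Pkm) and 4 isoforms made in male germ cells (Pgk2, Ldhc, Gapdhs and Aldoart1). They are 10 of the 53801 genes in the deposited table, and each had 1 entry there. Per the labels, RNA came from spermatocytes, the germ cells in meiosis, isolated from mouse testis. There was 1 library of Smc1b wild type and 1 library labelled as a knockout of SMC1beta in which SMC1alpha is overexpressed. The latter is called labelled knockout below. SMC1beta is the meiotic form and SMC1alpha the general form of a subunit of cohesin, the ring complex that holds sister chromatids together. The labels name spermatocytes as the cell type, and their protocol covers RNA from sorted spermatocytes as well as from whole testis. Both sample titles carry the tag 4N, which the labels do not explain. The sources used here do not give age, strain, animals per library or the element that drives SMC1alpha. A library of SMC1beta knockout alone was not used here. Levels are TPM, transcripts per 1000000 transcripts, which are corrected for gene length, so that levels of different genes can be compared. With 1 library per genotype there is no replicate check and no test, and "higher" and "lower" refer to these libraries. A log2 ratio below compares (TPM + 1) of the labelled knockout with (TPM + 1) of wild type, so that a negative value means lower in the labelled knockout and differences of genes at low levels come out too small.

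Glycolysis splits glucose into pyruvate, and lactate dehydrogenase converts pyruvate and lactate into each other. Meiotic spermatocytes are known to live largely on lactate supplied by Sertoli cells, whereas sperm use glycolysis along the tail. Several steps use a separate germ-cell enzyme. Pgk2 is an autosomal retrogene copy of the X-linked Pgk1, and the X chromosome is silenced during pachytene. Ldhc encodes the lactate dehydrogenase of germ cells and sperm. Gapdhs encodes the glyceraldehyde-3-phosphate dehydrogenase bound to the fibrous sheath of the sperm tail, and Aldoart1 is an aldolase retrogene.

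Facts of the libraries bear on all values below. Smc1b stood at 76.1 TPM in the wild-type library and 62.9 TPM in the library labelled knockout, and Smc1a at 0.51 and 28.8 TPM, so Smc1b RNA was still counted in the library labelled knockout. Which exons it came from cannot be read from a value per gene. All 12 markers fixed for spermatocytes were detected in both libraries, between 2.41 and 913 TPM in the wild-type library and between 2.31 and 956 TPM in the library labelled knockout. Their sums were 3518 and 4143 TPM. The 16 spermatid markers summed to 3848 TPM in the wild-type library and 466 TPM in the library labelled knockout. Marker sums of other cells were higher in the labelled knockout. For 12 spermatogonia genes they were 38.3 and 307 TPM, and for 12 Sertoli genes 82.4 and 499.8 TPM. For 9 Leydig genes they were 73.1 and 1767 TPM, and for 9 macrophage genes 4.597 and 38.92 TPM. Dazl (25.2 and 220 TPM) held most of the spermatogonia sum, and Insl3 (43.3 and 1352 TPM) most of the Leydig sum. Of these markers at 1 TPM or more in either library, Gfra1 (log2 ratio -0.17) and Cx3cr1 (-0.50) were lower and the others higher. Sums of 8 myoid and endothelial genes (8.75 and 12.8 TPM) and of 6 red blood cell genes (5.45 and 8.91 TPM) were low in both. The part of these cell types in the values of the 10 genes was not tested. In bulk RNA, fewer cells of a type and less RNA per cell cannot be told apart.

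The windows before the transcription starts of 2 isoform pairs are shown because the pairs behaved differently, as described below: Pgk2 and Pgk1 had unequal ratios, and Ldhc and Ldha nearly equal ones. Each is the 250 bases before the RefSeq start (build GRCm38.p6), 5′ to 3′ on the gene's strand. Capitals mark matches, on either strand, of TGACG, the core of the cAMP response element, and of GGGCGG, a GC box. The windows are chr17:40208610-40208859 on the minus strand for Pgk2, chrX:106186850-106187099 on the plus strand for Pgk1, chr7:46861013-46861262 on the plus strand for Ldhc and chr7:46845554-46845803 on the plus strand for Ldha.
Pgk2: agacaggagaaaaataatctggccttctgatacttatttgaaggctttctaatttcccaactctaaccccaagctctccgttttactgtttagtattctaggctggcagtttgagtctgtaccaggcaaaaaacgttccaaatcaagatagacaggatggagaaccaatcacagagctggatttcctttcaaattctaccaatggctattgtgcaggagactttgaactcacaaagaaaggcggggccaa
Pgk1: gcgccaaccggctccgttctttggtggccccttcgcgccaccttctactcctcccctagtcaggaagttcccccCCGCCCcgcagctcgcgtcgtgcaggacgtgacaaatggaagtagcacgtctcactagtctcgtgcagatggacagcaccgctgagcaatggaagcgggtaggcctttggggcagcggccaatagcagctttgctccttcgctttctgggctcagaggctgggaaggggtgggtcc
Ldhc: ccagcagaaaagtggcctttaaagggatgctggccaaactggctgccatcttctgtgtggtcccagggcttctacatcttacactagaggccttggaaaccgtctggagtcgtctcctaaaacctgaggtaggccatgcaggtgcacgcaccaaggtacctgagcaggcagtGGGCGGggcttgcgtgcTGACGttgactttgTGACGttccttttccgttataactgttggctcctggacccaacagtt
Ldha: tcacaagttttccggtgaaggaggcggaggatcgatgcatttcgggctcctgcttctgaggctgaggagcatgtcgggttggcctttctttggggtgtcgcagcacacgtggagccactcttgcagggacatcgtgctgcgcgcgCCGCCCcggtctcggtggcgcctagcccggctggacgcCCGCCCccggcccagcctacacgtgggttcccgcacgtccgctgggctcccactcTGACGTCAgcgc

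The Pgk2 window held neither motif and the Pgk1 window held 1 GGGCGG match. The Ldhc window held 2 TGACG matches and 1 GGGCGG match, and the Ldha window held 2 of each, its TGACG matches being the strands of 1 palindrome. Of 32851 RefSeq windows of 250 bases, 17.8% held TGACG and 32.7% held GGGCGG. RefSeq windows were found for 9 of the 10 genes, Aldoart1 being the exception. In the other windows, TGACG was in none, and GGGCGG was in that of Pkm but not in those of Ldhb, Gapdh, Hk1 and Gapdhs. CpG content, given as observed over expected, was 0.27 for Pgk2, 0.43 for Ldhc and 0.05 for Gapdhs, against 0.69 for Pgk1, 0.89 for Ldha, 0.72 for Ldhb and 0.76 for Pkm. Among the somatic isoforms Gapdh (0.42) and Hk1 (0.07) were the exceptions, and the median of all windows was 0.37. Hk1 has 2 RefSeq starts, and whether the one used serves somatic or germ-cell transcripts was not examined. These are descriptions of the windows. A match is not a binding site. Where a gene has several RefSeq starts, the one nearest to the gene's deposited start, taken on its own strand, was used. The RefSeq start used lay 4329 bases from the deposited one for Ldha, 694 bases for Gapdh, 208 bases for Pkm and 60 bases for Ldhc. The last 60 bases of the Ldhc window thus lie inside the deposited gene. Bases just after the start used were found in an annotated transcript of the same gene for 7 of the 9 genes.

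All 4 germ-cell isoforms were lower in the labelled knockout, and the 6 somatic isoforms went both ways. The germ-cell isoforms had log2 ratios from -3.35 to -1.10 with a median of -2.16. The somatic isoforms had ratios from -2.79 to 3.03 with a median of 0.79, 4 of them higher and 2 lower. The median was -0.05 over 15000 protein-coding genes and -0.22 over 23148 genes of all kinds, counting genes that reached 1 TPM in either library. All 10 genes passed that filter. Counting at 2-fold, 3 of the 10 were higher, against 18.7% of protein-coding genes and 15.0% of all genes. Lower were 6 of the 10, against 16.5% and 19.3%. A pseudocount of 5 TPM gave 2 higher and 6 lower, against 6.87% and 10.5% of protein-coding genes. Leaving mitochondrial genes and the 20 most abundant ones out of the scaling moved the protein-coding shares to 28.1% higher and 9.78% lower, with a protein-coding median of 0.36. Under this and 2 other rescalings all 10 genes kept their direction, while Ldhc and Ldha came to lie within 2-fold, leaving 4 lower.

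**Figure D1:**
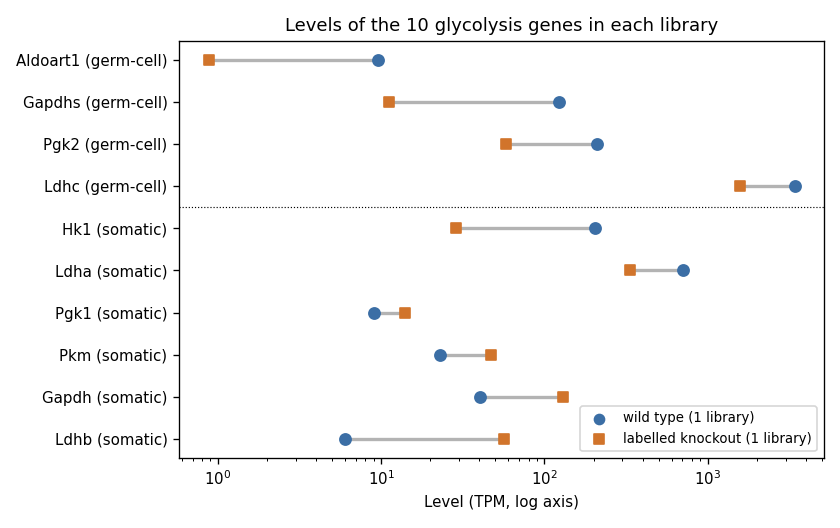
Level in TPM (log axis) of the 10 genes, with circles for the wild-type library and squares for the labelled knockout library, 1 library each and no error bars. The 4 germ-cell isoforms above the dotted line and Hk1 and Ldha below it have their squares to the left, and Pgk1, Pkm, Gapdh and Ldhb have theirs to the right.

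Ldhc (ENSMUSG00000030851; mm10 chromosome 7, 46861203 to 46878142, plus strand) was the most abundant of the 10 genes. It stood at 3398 TPM in the wild-type library and 1585 TPM in the library labelled knockout, 2.14-fold lower, with a log2 ratio of -1.10. Its level ranked 5 of 22058 protein-coding genes in wild type against 9 in the library labelled knockout, so it stayed among the most abundant messengers in both libraries. Of its 75-base windows, 0.0% occurred in transcripts of another gene.

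Pgk2 (ENSMUSG00000031233; mm10 chromosome 17, 40207018 to 40208609, minus strand), the phosphoglycerate kinase of germ cells, stood at 209 TPM in the wild-type library and 58.2 TPM in the library labelled knockout. This was 3.60-fold lower, with a log2 ratio of -1.83. It has 1 exon, and 0.0% of its 75-base windows occurred in another gene, Pgk1 included.

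Gapdhs (ENSMUSG00000061099; mm10 chromosome 7, 30729775 to 30743681, minus strand) was the lowest of the 4 in log2 ratio. It stood at 123 TPM in the wild-type library and 11.2 TPM in the library labelled knockout, 11.0-fold lower, with a log2 ratio of -3.35. Its rank among protein-coding genes went from 1190 to 7189. The table lists 3 genes on the opposite strand across it (Tmem147os, Gm26935 and AC167978.1), at 2.806 to 6.596 TPM in the wild-type library and 1.27 to 8.22 TPM in the library labelled knockout. The libraries were strand-specific per the labels, but whether counting used strand is not given in the sources used here.

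Aldoart1 (ENSMUSG00000059343; mm10 chromosome 4, 72850583 to 72852634, minus strand) had the lowest level of the germ-cell isoforms. It stood at 9.59 TPM in the wild-type library and 0.88 TPM in the library labelled knockout, a ratio of 10.9 as TPM and a log2 ratio of -2.50. Its coding sequence is 93.9% identical to that of Aldoa, and 0.96% of its 75-base windows occurred in Aldoa transcripts. Of its 31-base windows, 10.19% occurred in Aldoa transcripts and 2.42% in those of Aldoart2, another aldolase gene. A low value in the labelled knockout, below 1 TPM, rests on few transcripts, and the depth behind it is given only as at least 40000000 reads.

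The somatic isoforms fell into those higher and those lower. Ldhb (ENSMUSG00000030246; mm10 chromosome 6, 142490249 to 142507957, minus strand), the heart-type lactate dehydrogenase, stood at 6.04 TPM in the wild-type library and 56.4 TPM in the library labelled knockout. This was 9.33-fold higher, with a log2 ratio of 3.03, above 99.1% of protein-coding genes. It remained the least abundant of the 3 lactate dehydrogenase genes in both libraries.

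Gapdh (ENSMUSG00000057666; mm10 chromosome 6, 125161715 to 125166467, minus strand), the glyceraldehyde-3-phosphate dehydrogenase of all cells, stood at 40.5 TPM in the wild-type library and 130.0 TPM in the library labelled knockout. As deposited this was 3.21-fold higher, with a log2 ratio of 1.66. Of its 75-base windows, 22.6% occurred in transcripts of other genes, 113 of them pseudogenes in the table that summed to 94.97 and 55.57 TPM. Gapdh with these pseudogenes added stood at 135 and 186 TPM, 1.37-fold higher. More of the pseudogene sum came from Gm6981 (39.3 and 15.4 TPM, 26 shared windows) and Gm11960 (16.3 and 12.5 TPM, 156 shared windows) than from the rest in wild type. The added sum is thus not the amount of ambiguous reads, and how such reads bear on the Gapdh difference was not tested. Gapdh also overlaps Iffo1 on the opposite strand (57.6 and 36.3 TPM).

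Pkm (ENSMUSG00000032294; mm10 chromosome 9, 59656368 to 59679375, plus strand), which encodes the muscle and general pyruvate kinase, stood at 22.8 TPM in the wild-type library and 47.0 TPM in the library labelled knockout. This was 2.06-fold higher, and its log2 ratio of 1.01 lay at the 2-fold mark. With a pseudocount of 5 TPM in place of 1 TPM it was 0.90. Of the 75-base windows of Pkm, 17.8% occurred in transcripts of other genes. With the 2 pseudogenes among these added, Pkm stood at 25.0 and 47.6 TPM, 1.90-fold higher. Pgk1 (ENSMUSG00000062070; mm10 chromosome X, 106187100 to 106203699, plus strand) stood at 9.03 TPM in the wild-type library and 13.9 TPM in the library labelled knockout, 1.54-fold higher, with a log2 ratio of 0.57 that stayed below 2-fold under each rescaling. Of its 75-base windows, 52.8% occurred in other genes, of which the 2 pseudogenes in the table were listed at 0 in both libraries.

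Hk1 and Ldha stood apart from the other somatic isoforms by being lower in the labelled knockout. Hk1 (ENSMUSG00000037012; mm10 chromosome 10, 62268855 to 62379908, minus strand), the hexokinase that starts glycolysis, stood at 204 TPM in the wild-type library and 28.7 TPM in the library labelled knockout, 7.10-fold lower, with a log2 ratio of -2.79. This was lower than for Pgk2 and Ldhc. In mouse, Hk1 also gives rise to germ-cell transcripts with their own first exons, which end up in the sperm tail enzyme. The annotation holds 18 coding transcripts of Hk1, and a value summed per gene cannot show which of them differed. Hk1 also overlaps Hk1os on the opposite strand (5.626 and 1.275 TPM). Ldha (ENSMUSG00000063229; mm10 chromosome 7, 46841475 to 46855627, plus strand), the muscle-type lactate dehydrogenase, stood at 708 TPM in the wild-type library and 334 TPM in the library labelled knockout, 2.12-fold lower, with a log2 ratio of -1.08. Ldha lies 5576 bases before Ldhc on the same strand, and their log2 ratios of -1.08 and -1.10 were nearly equal. Their coding sequences are 73.2% identical, and 0.0% of Ldhc windows of 75 bases occurred in Ldha.

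Setting each germ-cell isoform over its somatic counterpart within a library gives a measure that does not depend on how a library is scaled. Pgk2 was 23.2 times as abundant as Pgk1 in wild type and 4.18 times in the library labelled knockout, a difference of -2.47 on the log2 scale. The Pgk2 share of the pair was 95.9% and 80.7%, so the germ-cell form made up most of the pair in both libraries. Gapdhs was 3.03 times as abundant as Gapdh in wild type and 0.086 times in the library labelled knockout. The Gapdhs share thus went from 75.2% to 7.92%, and the more abundant gene of the pair changed. With the pseudogenes added to Gapdh these ratios were 0.91 and 0.060, and the ratio was lower in the labelled knockout either way (-3.91 instead of -5.14 on the log2 scale). In that sum Gapdhs was not the more abundant in either library.

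Aldoart1 was the minor form beside Aldoa, the general aldolase, in both libraries, at 10.8% of the pair in wild type against 1.195% in the library labelled knockout. The table has 2 entries named Aldoa, at 79.0 and 72.5 TPM and at 30.1 and 16.8 TPM. The more abundant was used, and with both summed the log2 difference was -3.16 instead of -3.33. Among the lactate dehydrogenases, Ldhc was 562 times as abundant as Ldhb in wild type and 28.1 times in the library labelled knockout. Against Ldha it was 4.797 and 4.739 times as abundant, a log2 difference of -0.02, so the Ldhc share of this pair was close, at 82.75% and 82.57%. Of the 5 pairs with a member, the 4 others had differences between -5.14 and -2.47.

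The same was computed for 7 other pairs of energy metabolism, each with a germ-cell gene and a somatic gene. In 7 of 7 the germ-cell gene was lower relative to its partner in the labelled knockout, by -4.0 to -1.8 on the log2 scale, with a median of -2.57. These ratios carry no pseudocount. The differences of G6pd2 over G6pdx (-4.0), Pdha2 over Pdha1 (-3.21) and Gk2 over Gk (-3.18) each rest on a value below 1 TPM. Their size is therefore uncertain. The pair with Gk is counted although Gk did not reach 1 TPM. Of the 6 somatic partners at 1 TPM or more, 6 were at least 2-fold higher, with a median log2 ratio of 1.67 (2 of them with a pseudocount of 5 TPM), among them Cycs, the general cytochrome c (4.06 and 27.0 TPM), and Cox6b1, a subunit of cytochrome oxidase (29.1 and 89.6 TPM). Of the 7 germ-cell partners, 3 were at least 2-fold lower and 0 higher, with a median of -0.20 that turned positive under each rescaling. Over protein-coding genes 18.7% were at least 2-fold higher and 16.5% lower. Cyct, the cytochrome c of testis (147.7 and 165.8 TPM), Slc25a31, a mitochondrial ADP/ATP carrier of germ cells (58.6 and 78.3 TPM), Pdha2, the autosomal pyruvate dehydrogenase subunit (135 and 120 TPM), and Cox6b2 (523 and 454 TPM) lay within 2-fold. Gk2 stood at 453.2 and 134.5 TPM, Csl at 162.5 and 70.3 TPM and G6pd2 at 3.07 and 0.71 TPM, each at least 2-fold lower. The somatic genes Pdha1 (0.56 and 4.56 TPM), G6pdx (1.04 and 3.87 TPM), Slc25a4 (1.87 and 8.71 TPM) and Cs (17.96 and 39.2 TPM) were higher, and Gk, a glycerol kinase gene, stayed below 1 TPM (0.37 and 0.98 TPM).

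**Figure D2:**
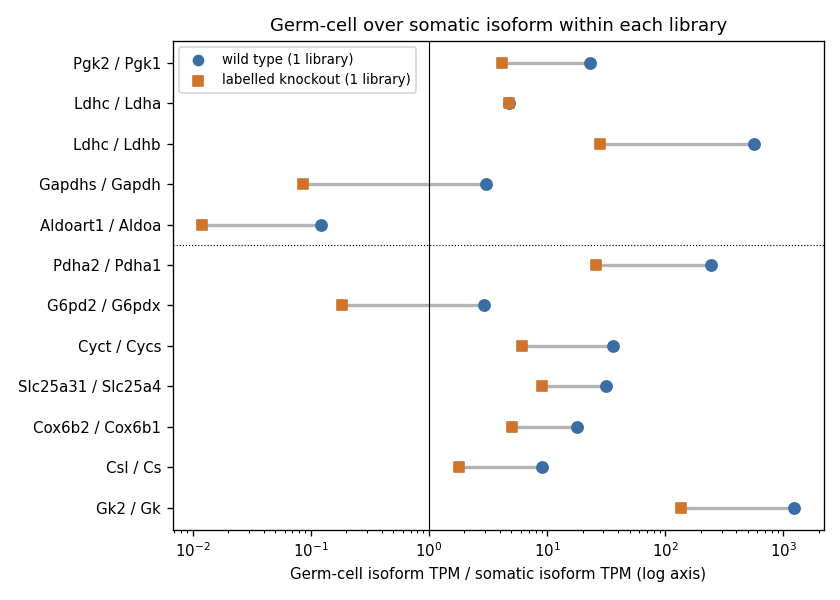
TPM of the germ-cell isoform over TPM of the somatic isoform within each library (log axis, 1 library each, no error bars), for the 5 pairs with a glycolysis member above the dotted line and 7 other pairs of energy metabolism below it. In 11 pairs the square of the labelled knockout lies left of the circle of wild type, and in Ldhc over Ldha the symbols coincide at 4.797 and 4.739.

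The other enzymes of the pathway also differed in both directions. Of the 23 other glycolysis genes fixed as a list, 18 reached 1 TPM, of which 6 were higher and 7 lower by 2-fold or more. Over protein-coding genes the shares were 18.7% and 16.5%. With a pseudocount of 5 TPM 1 was higher and 6 lower, against 6.87% and 10.5%. Leaving the most abundant genes out of the scaling left 4 lower, against 9.78%. The median log2 ratio of the 18 genes was -0.10, and it turned positive under each rescaling. The lowest at 5 TPM or more were Aldoart2, a further aldolase retrogene (23.2 and 3.66 TPM), the phosphofructokinases Pfkp (209 and 63.4 TPM) and Pfkm (148.5 and 47.1 TPM), and Eno4, an enolase needed for sperm tails (37.6 and 12.8 TPM). The highest were Adpgk, an ADP-dependent glucokinase (1.66 and 7.43 TPM), Pfkl, the liver phosphofructokinase (1.04 and 5.41 TPM), Pgam1, the general phosphoglycerate mutase (11.0 and 29.2 TPM), and Eno1b (8.62 and 22.2 TPM), a copy of Eno1 whose reads may be shared with it.

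Summed over the isoforms of a step, most steps were lower in the labelled knockout. Of 11 steps, 9 were lower and 2 higher as deposited, with 5 lower and 1 higher by 2-fold or more on the log2(TPM + 1) scale. Of 15000 single protein-coding genes 7739 were lower, with 16.5% lower and 18.7% higher by 2-fold or more. Glucose-6-phosphate isomerase (Gpi1, 39.7 and 19.6 TPM) lay just inside that mark at -0.98, and was 2.02-fold lower as TPM. After each of 3 rescalings 8 were lower, aldolase only by -0.16 to -0.05, and 3 were at least 2-fold lower. The 3 were hexokinase (207 and 35.8 TPM), phosphofructokinase (359 and 116 TPM) and phosphoglycerate kinase (218 and 72.1 TPM). Hk1 held 98.5% of the hexokinase sum in wild type against 80.25% in the library labelled knockout, where Hk2, an inducible hexokinase, held 15.75% (2.315 and 5.633 TPM). In wild type Pgam2 held 97.8% of the phosphoglycerate mutase sum and Pgk2 95.9% of the phosphoglycerate kinase sum. Such sums largely follow 1 gene.

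The isoforms of the glyceraldehyde-3-phosphate dehydrogenase step differed more than their sum. The sum of Gapdh and Gapdhs was 163 TPM in the wild-type library and 141 TPM in the library labelled knockout, or -0.21 on the log2 scale, which became positive after each rescaling. The lactate dehydrogenases summed to 4113 and 1976 TPM, more than any other step in both libraries, and their composition was close, with Ldhc at 82.6% and 80.2%, Ldha at 17.2% and 16.9%, and Ldhb at 0.15% and 2.86%. Pyruvate kinase, in practice Pkm, and triosephosphate isomerase (Tpi1, 103 and 143 TPM) were the steps with higher sums.

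**Figure D3:**
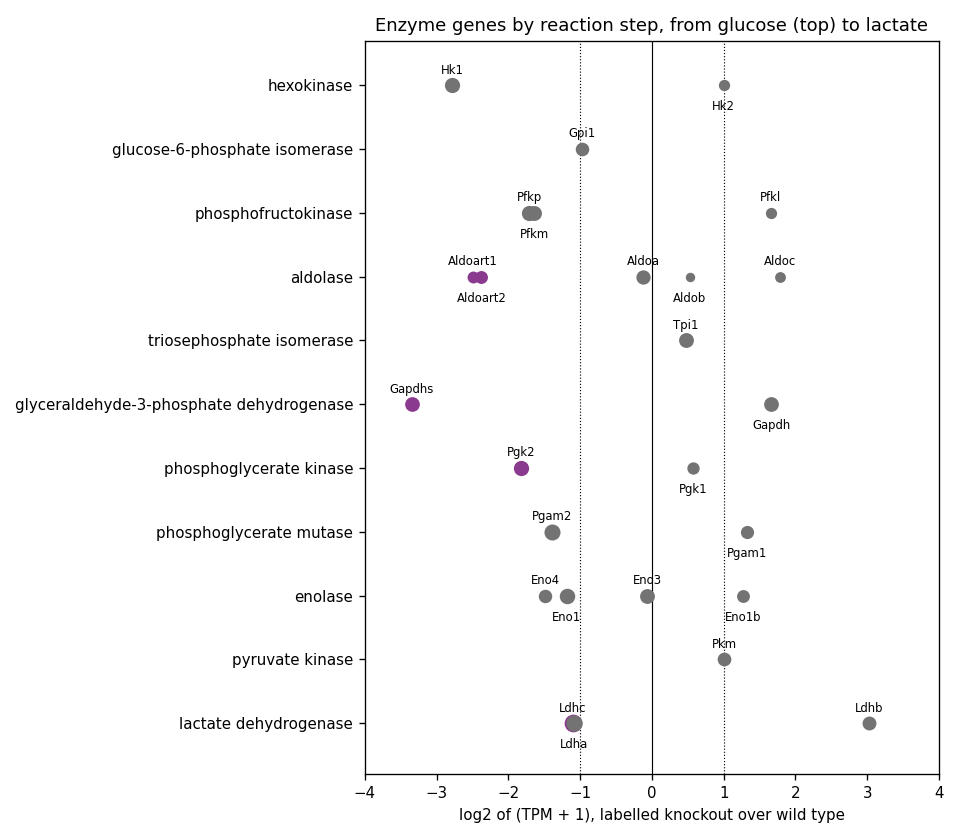
Log2 of (TPM + 1), labelled knockout over wild type, for enzyme genes that reached 1 TPM in either library, by reaction step from glucose at the top to lactate at the bottom. Purple points are germ-cell isoforms, Aldoart2 included, grey points are other genes, larger points have a higher TPM in the library where the gene is higher, and dotted lines mark 2-fold. The purple points lie between -3.35 and -1.10, and every step with more than 1 plotted gene has points on both sides of 0.

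Transport and neighbouring pathways were described from fixed lists. Over protein-coding genes, 18.7% were at least 2-fold higher and 16.5% lower. Of 11 sugar and lactate carriers, 4 were at least 2-fold lower and 2 higher, with a median log2 ratio of -0.48. The 2 higher are near the protein-coding share. With a pseudocount of 5 TPM 1 was higher. The lower ones were Slc2a5 (293 and 70.6 TPM), the lactate and pyruvate carrier Slc16a7 (132 and 36.4 TPM), Slc2a8 (65.04 and 21.01 TPM) and the glucose carrier Slc2a3, at 1481 and 561 TPM the most abundant of the list. The monocarboxylate carrier Slc16a1 was higher (1.75 and 13.3 TPM). Of 14 genes of pyruvate entry into mitochondria, 13 reached 1 TPM, with 3 higher, 1 lower and a median of 0.24. The 3 higher are a share near the 18.7% of protein-coding genes, and 0 were higher with a pseudocount of 5 TPM. The pyruvate dehydrogenase kinases Pdk1 (2.06 and 8.45 TPM) and Pdk3 (5.73 and 15.1 TPM) were higher, and Pdk2 (61.2 and 23.5 TPM) was lower.

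Of 10 pentose phosphate genes, 5 were at least 2-fold higher and 1 lower, with a median of 0.84. The protein-coding shares beside this and the following lists are 18.7% higher and 16.5% lower. Tktl1 (0.41 and 9.01 TPM), Taldo1, the transaldolase (2.465 and 14.37 TPM), Pgd (4.802 and 20.52 TPM) and Tkt, the transketolase (3.47 and 14.7 TPM), led the higher ones. The 1 lower gene was not past 2-fold with a pseudocount of 5 TPM. Of 8 regulators, 1 was higher (Hif1a, a hypoxia-response factor, at 1.76 and 12.7 TPM) and 0 were lower, with a median of 0.38. Under each rescaling 3 were higher, where 24.3% to 28.1% of protein-coding genes were higher too. Of 7 gluconeogenesis genes 4 reached 1 TPM, with 0 higher and 1 lower, Fbp1 (448.3 and 198.5 TPM), and a median of -0.11 that turned positive under each rescaling. Each rescaling also brought Fbp1 within 2-fold and left 1 higher and 0 lower, the higher being Pcx, pyruvate carboxylase (1.12 to 1.24 on the log2 scale), named after its values were seen.

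The members were also set beside the cell type markers on the same scale. All 16 spermatid markers were at least 2-fold lower, against 16.5% of protein-coding genes. Their log2 ratios ran from -6.63 to -1.11 with a median of -3.56. Gapdhs, Aldoart1 and Pgk2 lay inside that range, and so did Hk1, while Ldhc (-1.10) and Ldha (-1.08) lay just above it. The 12 spermatocyte markers ranged from -0.85 to 1.91 with a median of -0.07, and all 4 germ-cell isoforms lay below their lowest value. Of these 12 markers, 4 were at least 2-fold higher and 0 lower, against 18.7% and 16.5% of protein-coding genes. Their median turned positive under each rescaling (0.18 to 0.29). Of the somatic members that were higher, Gapdh (1.66), Pkm (1.01) and Pgk1 (0.57) lay inside the spermatocyte range too, and Ldhb (3.03) lay above it. All 4 lay inside the ranges of the spermatogonia markers (-0.17 to 3.44) and of the macrophage markers at 1 TPM or more (-0.50 to 3.32). Gapdh and Pkm lay inside the range of the 12 Sertoli markers (0.58 to 2.80), and Ldhb lay inside that of the 9 Leydig markers (2.22 to 4.93). The ranges overlap, so a member's place in them does not single out a cell type. Whether RNA of these cells contributes to the members' values was not tested.

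**Figure D4:**
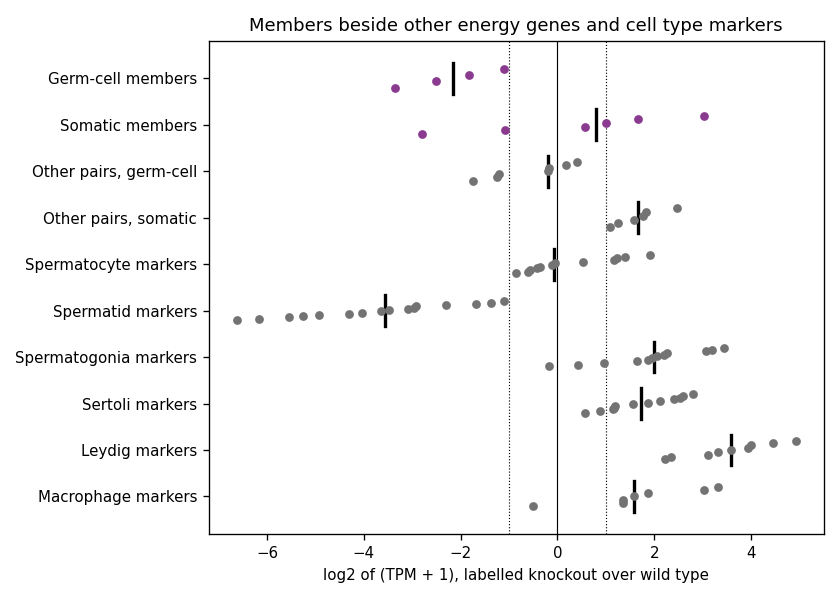
Log2 of (TPM + 1), labelled knockout over wild type, for each gene at 1 TPM or more (points) and the list median (black bars), with the 10 members in purple and dotted lines at 2-fold. The germ-cell members, median -2.16, lie below all spermatocyte markers, and all of them but Ldhc lie within the range of the spermatid markers, median -3.56, and the somatic members spread from -2.79 to 3.03.

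The protein-coding genes nearest to a member were found by distance in the plane of log2(TPM + 1) over the 2 libraries, which with so few libraries describes level and ratio and nothing more. Nearest to Gapdhs were Gsg1 (109 and 10.8 TPM, distance 0.175) and Odf1, an outer dense fibre gene of the sperm tail and one of the spermatid markers (139 and 10.2 TPM, distance 0.216). Nearest to Pgk2 were Kif9, a kinesin (207 and 57.2 TPM, distance 0.029), and Lrrc23 (204 and 60.3 TPM, distance 0.064). Nearest to Ldhc were Tcp1, a chaperonin subunit (2729 and 1520 TPM, distance 0.322), and Pabpc1 (2321 and 1739 TPM, distance 0.566). Aldoart1 had Sh2b2 (8.88 and 0.90 TPM) at a distance of 0.101. Pgk1 had Banp (9.21 and 13.9 TPM) and Cyp51, an enzyme of cholesterol synthesis (8.93 and 14.2 TPM), at 0.025 and 0.027.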

How the data were processed

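The deposited table gives TPM per gene, and each of its 2 columns sums to 1000000 over 53801 genes. The submitters' processing notes name the mm10 build and, as tools, kallisto 0.43.1, GSNAP, TopHat and bcl2fastq 2.19.1. The sources used here do not give their roles, filters or annotation release. Per the labels' protocols, ribosomal RNA was depleted and strand-specific libraries were read as single ends of 75 bases, to at least 40000000 reads. Per the file headers, gene length and G+C content in percent are also deposited. They describe the gene. TPM keeps no depth, so no counting interval or detection floor was given, and no count test was run. TPM is a share, so RNAs that take a larger share lower all other values.

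Groups came from the genotype labels and columns from the sample titles. Log2 ratios used a pseudocount of 1 TPM, and shares of genes past 2-fold used genes that reached 1 TPM in either library. Ratios within isoform pairs used no pseudocount and no filter. Where a symbol occurred more than once, the entry with the higher mean TPM was used. No list-based chance test was made. The members and lists were chosen with earlier results of these data known. Named were all members, the genes of each pair, up to 4 list genes in each direction past 2-fold at 5 TPM or more, and the 2 genes nearest to Pgk1 and to each germ-cell isoform. Of the nearest genes, 1 is not reported here. Hk2, Tpi1 and the genes of the summed steps, the genes overlapping a member, Smc1a and Smc1b were named in addition. A first rescaling used the mean log2 ratio of genes at 1 TPM in both libraries, leaving out 30% of genes at either tail. The others set each library to 1000000 after leaving out mitochondrial genes and the 20 with the highest mean, or over protein-coding genes alone. Other settings were pseudocounts of 0.1 and 5 TPM, no filter, filtering at 5 TPM, and 4-fold as the mark for counting. Sums over reaction steps, over both Aldoa entries and over Gapdh with its pseudogenes were added after seeing the data.

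Shared sequence was counted as 75-base windows of GENCODE M21 transcripts found in transcripts of other genes, on the same strand. Between isoforms it was also counted as 31-base windows. Gene coordinates are those of the table and equal GENCODE's for 9 of the 10 genes, Pgk2 being the exception. Start windows are RefSeq's. A planned comparison of protein sequences was not made. The code for ratios and rescalings was run on simulated data with as many genes raised as lowered. That does not show how the rescalings perform on libraries that differ as widely as these. Python 3.11.15, NumPy 2.4.6, pandas 2.3.3, SciPy 1.17.1, Biopython 1.88 and Matplotlib 3.10.9 were used.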

Additional observations from a re-analysis of the deposited data

How the results depend on the processing

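Over the alternatives run, the 10 members kept their direction. Adding the protein-coding genes that share windows with Gapdh was not among these alternatives. The germ-cell median of -2.16 was -1.54 with a pseudocount of 5 TPM. Counting at 4-fold left 1 member higher and 3 lower. The log2 difference of Aldoart1 over Aldoa, -3.33, was -2.37 with 1 TPM added to both genes, because Aldoart1 stood below 1 TPM in the labelled knockout. That of Gapdhs over Gapdh, -5.14, was -3.91 with pseudogenes added to Gapdh, and the log2 ratio of Gapdh itself went from 1.66 to 0.45. Shares of protein-coding genes at least 2-fold higher and lower were 6.87% and 10.5% with a pseudocount of 5 TPM, 28.1% and 9.78% after leaving the 20 most abundant and the mitochondrial genes out of the scaling, and 4.68% and 3.28% at 4-fold. For all genes without a filter they were 6.46% and 8.3%. Of 515 recomputed values for 80 results, 85 moved by more than 1.5 times, none of the values past 2-fold changed sign, and 20 of the smaller ones did. Filtering at 5 TPM left no myoid, endothelial or red blood cell marker. No paired analysis was possible because each genotype has 1 library. Depth is given only as at least 40000000 reads, so low values such as that of Aldoart1 in the labelled knockout carry no stated precision.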
